A study of Mus musculus with 3 samples.

Results

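A set of 10 genes of Wnt signalling was followed across the cell layers of mouse ear epidermis, chosen by their symbols and roles. They were the ligands Wnt3, Wnt4 and Wnt10a, the Frizzled receptors Fzd6 and Fzd10, the R-spondin receptors Lgr5 and Lgr6, and the modulators Wif1, Dkkl1 and Nkd2, among the 31053 genes in the count tables. Single epidermal cells came from C57BL/6N mice, an inbred strain, that were 9 weeks old and had no treatment named in the labels. The cells were profiled in 3 libraries, replicates 1, 2 and 3 of 1 group, in droplets, with counts taken at the 5′ end of each transcript. Nothing in the labels says whether the replicates were separate animals, so the p-values measure the spread between libraries, which may be technical. No engineered allele is named. The cells had been released with enzymes from the basal side of the lifted sheet and frozen, so shares of cells are shares of that suspension.

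Wnt proteins are secreted, lipid-bearing signals that bind Frizzled receptors together with the co-receptors Lrp5 and Lrp6. In the branch that runs through beta-catenin, binding spares beta-catenin from destruction, and it then works in the nucleus with TCF and LEF factors. R-spondins bind Lgr receptors and prolong the life of Frizzled receptors at the cell surface. In skin, this signalling is known for its part in hair follicle formation and in the renewal of follicle and epidermal stem cells.

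Cells were grouped by the share of keratin and loricrin transcripts, with thresholds that cut a range and do not define a type. A unique molecular identifier (UMI) stands for a captured transcript, and a level is given as UMIs of the gene per 1000000 UMIs of the group in a library (UPM). Basal cells (2276) had 0.5% or more of their UMIs from Krt5 and Krt14, the keratins of the lowest layer, and under 0.5% from Krt1 and Krt10. Spinous cells (2221) had 0.5% or more from Krt1 and Krt10, the keratins of the middle layers, and under 1% from Lor, which encodes the envelope protein loricrin. Granular cells (411) had 1% or more from Lor. Follicle cells (146) had 2 or more UMIs of Sox9, Fst and Ctgf together. The Krt79+Defb6 cells (96) had 5 or more UMIs of these genes together. Each cell entered 1 group, and the 35 cells that met both of the last rules and the 155 that met none stayed out of the comparisons.

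The groups were checked against markers that the rules did not use. The 4 spinous markers summed to between 17523 and 19078 UPM in spinous cells and to between 707 and 1487 in basal cells. They were higher still in granular cells, at 38107 to 41656, and in Krt79+Defb6 cells, at 20698 to 27354. They thus set spinous cells apart from basal cells and not from those 2 groups. The 6 granular markers summed to between 36299 and 50984 in granular cells and to at most 185 in spinous cells. Follicle cells held the bulge genes Cd34, at 78.4, 121 and 75.4 UPM in replicates 1, 2 and 3, and Lhx2, at 84.0, 99.5 and 107. Both were at most 1.56 in basal cells. Of the 6 bulge markers on the fixed list, Krt15, Nfatc1 and Tcf7l1 were also higher in each library. Postn was not, at 207, 274 and 339 against 210, 268 and 425 in basal cells. The 6 markers of the upper follicle and sebaceous unit summed to between 1231 and 3468 in follicle cells and to between 114 and 140 in basal cells. Krt17 alone gave 3107, 941 and 1442 of the follicle sums in replicates 1, 2 and 3. The group is therefore not called bulge. Of the 146 follicle cells 93 also met the basal rule, 8 the spinous rule, 3 the granular rule and 42 no layer rule. Of the 96 Krt79+Defb6 cells 84 had 5 or more UMIs of Defb6 and 23 had 5 or more of Krt79, 62 also met the spinous rule and 11 the granular rule. That group is therefore called by its rule and given no cell type name, and 65 of its cells came from replicate 3 against 12 and 19 from replicates 1 and 2. Its upper follicle and sebaceous markers summed to 956, 2675 and 2513 UPM in replicates 1, 2 and 3, against 237 to 253 in spinous cells. Of these markers Fasn was not higher than in spinous cells in replicate 1, at 81.3 against 84.3.

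The 3 libraries held 1108, 2477 and 2493 barcodes and 15926683, 24480473 and 28176712 UMIs, and 5340 of 6078 barcodes passed the filters. Replicates 1 and 2 shared 3 barcodes, replicates 2 and 3 shared 8, and replicates 1 and 3 shared 0. Median depth differed by group, with 8454 UMIs per basal cell, 14558 per spinous cell, 19852 per granular cell, 4958 per follicle cell and 21882.5 per Krt79+Defb6 cell. In a group that pools cells, fewer expressing cells and less RNA per cell cannot be told apart. Levels of different genes were not set against each other, apart from ratios of Dkkl1 to Krtdap and Krt10 UMIs given at the end.

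Fold changes come from edgeR on counts summed per library and group, with trimmed-mean (TMM) scaling, and are given on the log2 scale with their standard error (SE). The Benjamini-Hochberg adjustment ran over the 10630 genes that were tested, and genes with an adjusted p under 0.05 are called changed. Scaling to plain total UMIs instead moved the median of all genes by -0.34 between spinous and basal cells, by -0.81 between granular and spinous cells, by 0.07 between follicle and basal cells, and by -0.40 and -0.48 for Krt79+Defb6 cells against basal and against follicle cells. Small differences are to be read against those shifts. The TMM factors lay between 0.543 and 0.608 in granular cells and between 0.996 and 1.03 in spinous cells, so that a level in UPM and a scaled fold differ there.

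The plot of levels by group gives the 10 genes side by side.

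**Figure D1:**
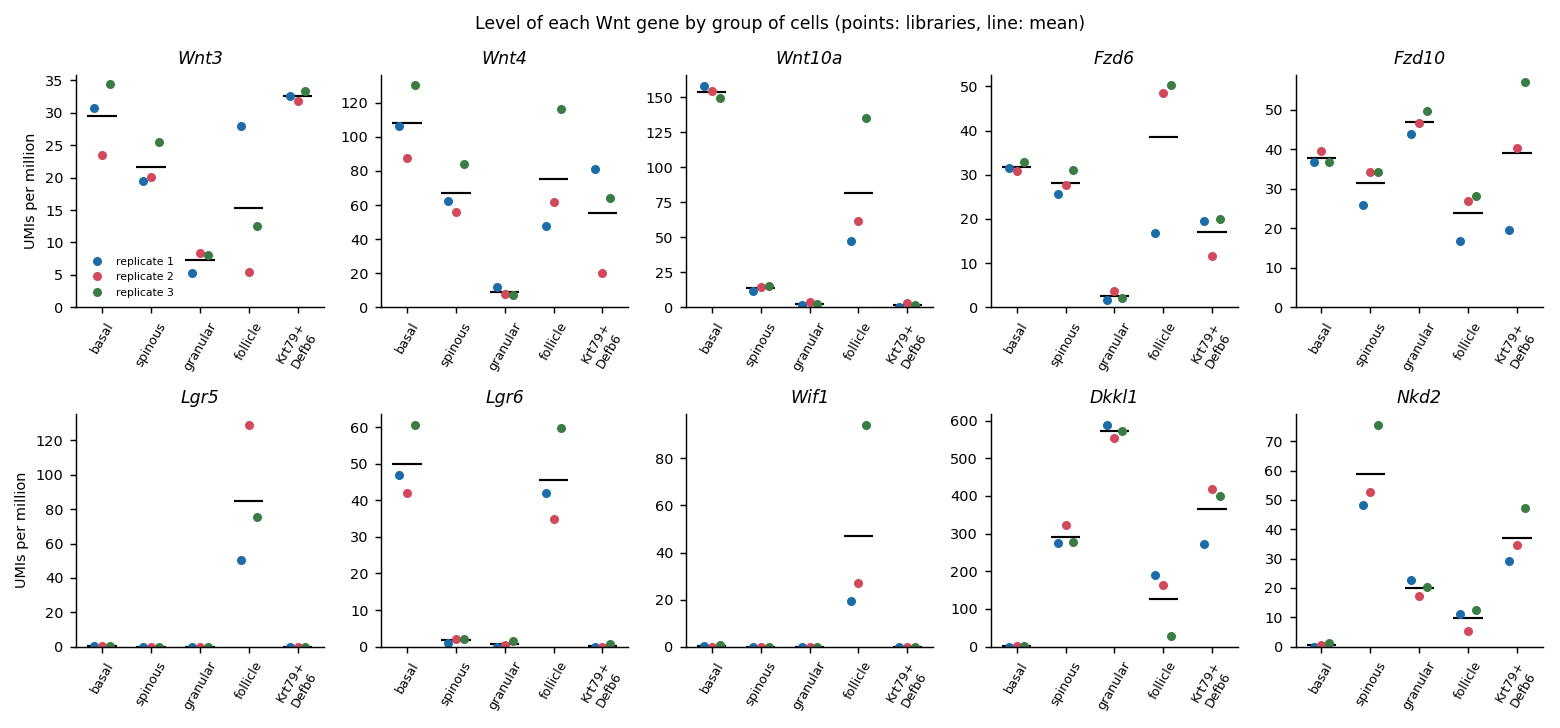
Levels of the 10 Wnt genes in UPM (vertical axes, linear, a separate scale for each gene) in 5 groups of cells, with a point per library and a line at the mean of the 3 libraries. Wnt10a and Lgr6 were high in basal and follicle cells, Lgr5 and Wif1 in follicle cells, Dkkl1 in spinous, granular and Krt79+Defb6 cells, and Nkd2 in spinous cells.

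Between basal and spinous cells the modulators Dkkl1 and Nkd2 rose, and Wnt4, Wnt10a, Lgr6, Lgr5 and Wif1 fell, the last 2 from 9 and 6 basal UMIs. Of the 10 genes, 2 rose and 5 fell in this comparison, beside 67.3% of all genes called, 34.9% higher and 32.4% lower. Over all genes tested, 51.9% of the calls were higher in spinous cells, against 31.2% with plain total UMIs and 40.9% with DESeq2. The count of called members is thus close to the background, and the results below rest on the size of single changes. The median log2 fold change of the members was -0.21, beside 0.02 over all genes tested.

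Wnt10a encodes a ligand of the beta-catenin branch whose loss in people affects teeth, hair and skin. In basal cells it stood at 158, 155 and 149 UPM in replicates 1, 2 and 3. In spinous cells it stood at 11.7, 14.3 and 15.3. The 3 basal values lie within a narrow band and far above all spinous ones, with no overlap. The change was -3.13 ± 0.13 on the log2 scale (SE, edgeR adjusted p = 1.92e-14), lower in 3 of 3 libraries. In granular cells the level was 1.78, 4.02 and 2.08, a further change of -1.57 ± 0.34 against spinous cells (SE, edgeR adjusted p = 0.000324), also in 3 of 3 libraries.

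Wnt4 encodes a ligand that acts in several organs, among them kidney and female reproductive tract. Its basal levels were 106, 87.5 and 130.4 UPM in replicates 1, 2 and 3, and its spinous levels 62.3, 55.7 and 83.9. The library order was the same in both groups, with replicate 3 highest and replicate 2 lowest. The change of -0.33 ± 0.12 (SE, edgeR adjusted p = 0.0201) was lower in 3 of 3 libraries. This call was lost without the replicate block (adjusted p = 0.161), without replicate 2 (0.0790) and with stricter cell filters (0.104). Its drop between spinous and granular cells was larger. The granular levels were 11.9, 7.67 and 7.004, and the change was -2.22 ± 0.21 (SE, edgeR adjusted p = 6.92e-09), lower in 3 of 3 libraries.

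Wnt3 encodes another ligand of the beta-catenin branch. Its basal levels were 30.7, 23.5 and 34.4 UPM in replicates 1, 2 and 3, against 19.5, 20.1 and 25.4 in spinous cells. The 2 groups overlapped, and the difference of -0.08 ± 0.12 (SE, edgeR adjusted p = 0.551) did not pass the test. With plain total UMIs the same difference was -0.43 and passed it (adjusted p = 0.00420), so its call depends on the scaling. Granular cells stood at 5.34, 8.41 and 8.04, lower than spinous cells in 3 of 3 libraries by a change of -0.72 ± 0.21 (SE, edgeR adjusted p = 0.00492), which was lost without replicate 3 (adjusted p = 0.0537).

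Frizzled proteins are the membrane receptors to which Wnt ligands bind. Fzd6, known for its part in hair patterning and nail growth, stood at 31.5, 30.9 and 33.0 UPM in basal cells of replicates 1, 2 and 3 and at 25.6, 27.8 and 31.1 in spinous cells. The difference of 0.17 ± 0.11 (SE, edgeR adjusted p = 0.169) did not pass the test, and its sign was negative with plain total UMIs (-0.17) and with DESeq2 (-0.02). In granular cells Fzd6 was at 1.78, 3.65 and 2.08, a change of -2.66 ± 0.26 against spinous cells (SE, edgeR adjusted p = 7.55e-09), lower in 3 of 3 libraries.

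Fzd10 moved the other way in the last step. Its basal levels were 36.8, 39.5 and 36.8 UPM in replicates 1, 2 and 3, its spinous levels 25.9, 34.3 and 34.2, and its granular levels 43.9, 46.8 and 49.8. All 3 granular values lie above all spinous ones. The rise from spinous to granular cells was 1.38 ± 0.13 (SE, edgeR adjusted p = 5.30e-09) and 0.56 with plain total UMIs (adjusted p = 5.58e-04), in 3 of 3 libraries. Between spinous and basal cells the difference of 0.09 ± 0.11 (SE, edgeR adjusted p = 0.505) did not pass the test, and it was -0.26 with plain total UMIs and -0.11 with DESeq2. The 2 receptors thus had opposite changes between spinous and granular cells under both scalings.

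In granular against spinous cells, 2 members rose and 5 fell, beside 69.3% of all genes called, 31.7% higher and 37.5% lower. Of all calls, 45.8% were higher in granular cells, against 22.0% with plain total UMIs. The median of the members was -0.76 and that of all genes -0.20.

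Lgr6 encodes an R-spondin receptor that marks stem cells in skin. It stood at 46.9, 42.0 and 60.6 UPM in basal cells of replicates 1, 2 and 3 and at 1.07, 2.21 and 2.13 in spinous cells. No spinous value came near the lowest basal one. The change of -4.36 ± 0.17 (SE, edgeR adjusted p = 3.89e-15) was lower in 3 of 3 libraries. Granular cells held 7 Lgr6 UMIs in all against 65 in spinous cells, and the difference between them did not pass the test (-0.38 ± 0.58, SE, edgeR adjusted p = 0.575), but did with plain total UMIs (-1.20, adjusted p = 0.0443).

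Dkkl1 encodes a secreted relative of the Dickkopf proteins, a family that holds inhibitors of Wnt co-receptors, and was first known from testis. It was near 0 in basal cells, at 0.368, 0.729 and 1.80 UPM in replicates 1, 2 and 3. Spinous cells held 274, 324 and 279, and granular cells 588, 553 and 573. The 3 groups did not overlap at any point. The rise from basal to spinous cells was 8.41 ± 0.41 (SE, edgeR adjusted p = 1.40e-13), in 3 of 3 libraries. It rests on 9980 UMIs against 22, a ratio of levels of 277 with an exact 95% interval of 183 to 442 that covers counting error only. The rise from spinous to granular cells was 1.78 ± 0.25 (SE, edgeR adjusted p = 2.30e-06) and 0.97 with plain total UMIs (adjusted p = 6.92e-04), in 3 of 3 libraries.

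Nkd2 encodes a Naked cuticle protein, which binds Dishevelled inside the cell and restrains the beta-catenin branch. Its basal levels were 0, 0.583 and 1.32 UPM in replicates 1, 2 and 3, its spinous levels 48.2, 52.8 and 75.6, and its granular levels 22.6, 17.2 and 20.2. The rise from basal to spinous cells was 6.66 ± 0.22 (SE, edgeR adjusted p = 7.76e-16), and the change from spinous to granular cells was -0.80 ± 0.16 (SE, edgeR adjusted p = 1.29e-04), each in 3 of 3 libraries. Between groups, Dkkl1 and Nkd2 therefore both rose from basal to spinous cells and changed in opposite directions from spinous to granular cells. In narrower steps, given below, their courses already differed within the spinous group.

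The promoter stretches of these 2 genes, which were almost silent in basal cells, are shown as RefSeq gives them for build GRCm38.p6, from 250 bases before to 50 after each annotated start. The table held such a stretch for 7 of the 10 genes. Capitals mark each CACCC box, read on either strand (GGGTG on the other), a core that Krüppel-like factors are known to bind. The first lies at chr7:45211834-45212133 and the second at chr13:73847582-73847881, both on the minus strand and written 5′ to 3′ along the gene. The Dkkl1 stretch lies wholly inside the gene as GENCODE M21 places it, with a start at 45212147, so it is not upstream of that start.
Dkkl1: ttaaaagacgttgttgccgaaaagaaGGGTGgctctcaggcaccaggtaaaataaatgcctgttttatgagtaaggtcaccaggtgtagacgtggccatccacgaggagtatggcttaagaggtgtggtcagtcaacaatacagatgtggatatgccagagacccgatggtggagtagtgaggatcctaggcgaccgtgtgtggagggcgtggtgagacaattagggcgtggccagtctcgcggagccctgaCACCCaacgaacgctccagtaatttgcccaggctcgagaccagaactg
Nkd2: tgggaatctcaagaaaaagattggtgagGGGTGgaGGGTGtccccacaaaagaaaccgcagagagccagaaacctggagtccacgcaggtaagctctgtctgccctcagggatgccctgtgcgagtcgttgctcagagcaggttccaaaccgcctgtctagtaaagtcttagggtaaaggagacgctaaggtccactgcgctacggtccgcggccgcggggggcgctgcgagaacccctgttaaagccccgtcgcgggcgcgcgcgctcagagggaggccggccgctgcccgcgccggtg
Each stretch held 2 CACCC boxes and no match on either strand to the core of TCF and LEF sites, CTTTG, or to the AP-1 site, TGANTCA. Of 32851 promoter stretches of the same length, 57.5% held a CACCC box, 53.9% the TCF core and 7.81% the AP-1 site. A box in these windows is a match of letters and not a measured site.

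Levels were also followed in narrower steps of the keratin and loricrin shares, which shows the values on both sides of each threshold. The steps around the spinous threshold held 179 cells with 0.25 to 0.5% of UMIs from Krt1 and Krt10 and 600 cells with 0.5 to 1%, with median depths of 8615 and 12096.5 UMIs. The step of 0.25 to 0.5% set no limit on Krt5 and Krt14, so it held cells of no rule beside basal cells. The steps around the granular threshold held 46 cells with 0.5 to 1% Lor and 65 with 1 to 2%. These values are descriptions without a test. Of the steps with fewer than 20 cells in some library, the one at 4% or more Krt1 and Krt10 held 7, 11 and 21 cells, and that of 0.5 to 1% Lor held 3, 29 and 14. The steps of 1 to 2% and 2 to 5% Lor held 7 and 11 cells in replicate 1.

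**Figure D2:**
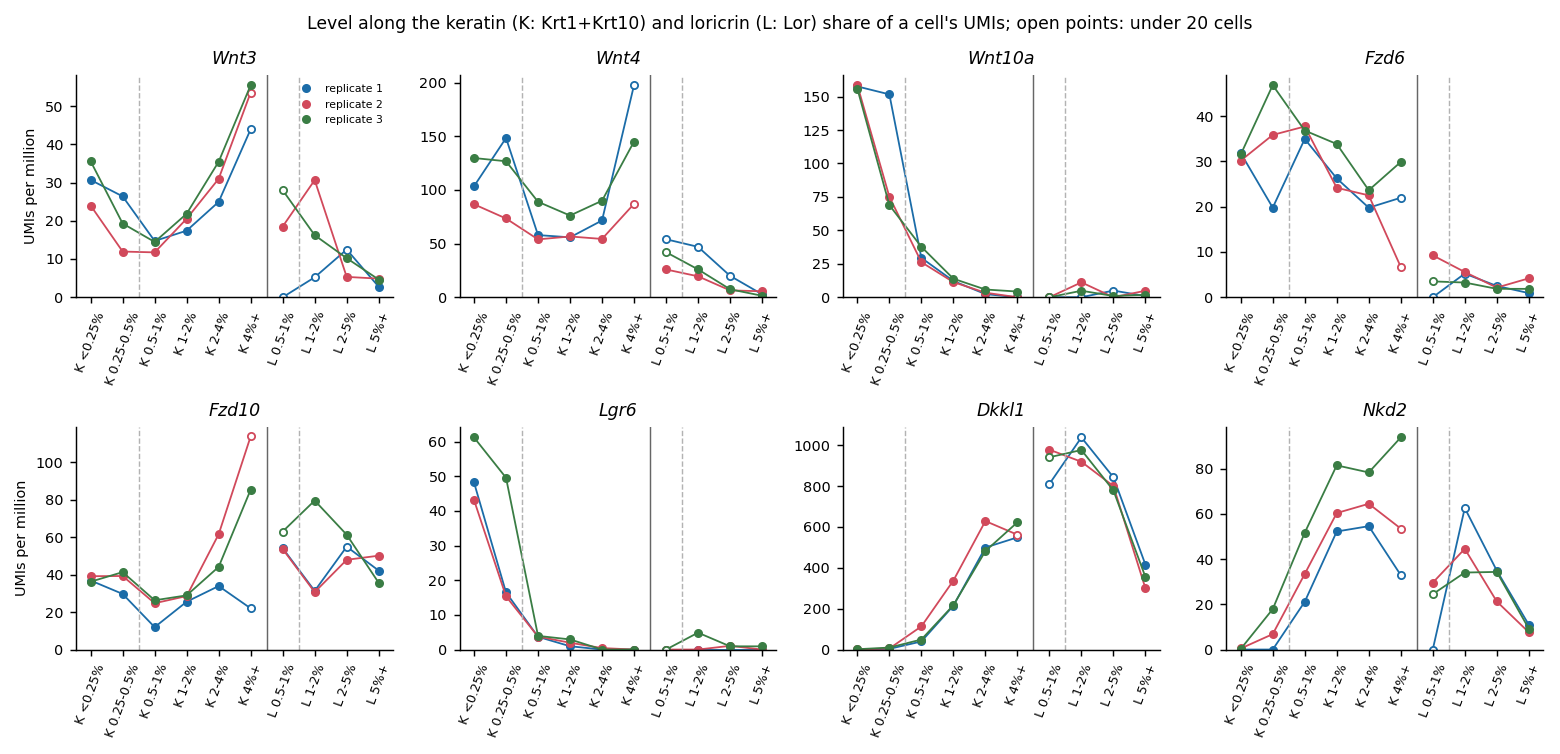
Levels in UPM (vertical axes, linear) of 8 genes along the share of a cell's UMIs from Krt1 and Krt10 (K, left of the solid line) and from Lor (L, right of it), with a line per library, open points for steps of under 20 cells and dashed lines at the spinous and granular thresholds. Wnt10a and Lgr6 were lower beyond the spinous threshold in each library, Dkkl1 had its highest mean at 1 to 2% Lor, and Wnt3 its lowest mean of the keratin steps at 0.5 to 1%.

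Wnt10a and Lgr6 were already lower just below the spinous threshold, in a step that also held cells of no rule. The mean level of Wnt10a was 157 UPM under 0.25% Krt1 and Krt10, 98.5 at 0.25 to 0.5%, 31.1 at 0.5 to 1%, 12.4 at 1 to 2% and 3.84 at 2 to 4%. At 0.25 to 0.5%, replicate 1, with 21 cells, kept 152, against 75.1 and 68.9 in replicates 2 and 3. Lgr6 went from 50.9 through 27.1 to 3.79, 1.95 and 0.141 in the same steps, and there replicate 3 kept 49.6 in the second step against 16.5 and 15.4.

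Dkkl1 and Nkd2 came up in the same steps and levelled off at different ones. Dkkl1 had mean levels of 0.843, 6.02, 67.3, 257 and 537 UPM in the 5 steps from under 0.25% to 2 to 4% Krt1 and Krt10. Nkd2 had 0.241, 8.24, 35.4, 64.7 and 65.8 in those steps, so its level had levelled off by 1 to 2%, where Dkkl1 was still climbing. In the step below the granular threshold, 0.5 to 1% Lor, Dkkl1 was already at 910 and Nkd2 at 18.0, with 3 cells in replicate 1. Beyond that threshold, Dkkl1 stood at 978 at 1 to 2% Lor, 807 at 2 to 5% and 357 at 5% or more. In that last step replicates 1, 2 and 3 held 416, 300 and 355, all below every value of the 2 steps before it. Nkd2 went from 47.1 through 30.2 to 9.30 in those steps. The granular mean of Dkkl1 therefore pools cells at its highest mean with cells well below it.

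Wnt3 had a low point that the comparison of groups does not show. Its means were 30.1, 19.2, 13.6, 19.9 and 30.5 UPM in the 5 keratin steps. At 0.5 to 1% replicates 1, 2 and 3 stood at 14.7, 11.7 and 14.5, and at 2 to 4% at 24.9, 31.0 and 35.4, so each library was higher at the later step. Fzd10 followed a like course, with 37.4 at the start, 20.98 at 0.5 to 1% and 46.5 at 2 to 4%. Fzd6 did not dip there: it stood at 31.2, 34.1, 36.5, 28.1 and 22.0. Median depth was 8454 UMIs in the first step, 12096.5 at 0.5 to 1% and 18191 at 2 to 4%, and its part in these courses was not tested.

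Wnt4 had means of 107, 116, 66.9, 62.8 and 71.9 UPM in those 5 steps, and 143 in the thin step at 4% or more. Each library was lower at 0.5 to 1% (57.9, 53.9 and 88.9) than at 0.25 to 0.5% (148, 73.4 and 127). Along Lor it fell from 30.8 at 1 to 2% through 11.3 to 3.23 at 5% or more. Fzd6 was at 4.68, 2.16 and 2.31 in the same Lor steps, and at 4.25 in the step below the granular threshold. Fzd10 held 47.1, 54.7 and 42.6. The loss of Wnt4 and Fzd6 with Lor and the persistence of Fzd10 thus appear in these finer steps as well.

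Among basal cells, 423 held 2 or more UMIs of Mki67 and Top2a, genes of cycling cells, and 1670 held none. Wnt3 stood at 35.7, 36.8 and 47.6 UPM in the cycling cells of replicates 1, 2 and 3 and at 30.0, 19.8 and 26.0 in the others. Each library was higher in its cycling cells, as it was for Wnt4, with means of 128 and 98.1, for Fzd10, with 46.0 and 34.9, and for Lgr6, with 53.2 and 47.4. Wnt10a had means of 154 and 155 and Fzd6 30.93 and 30.92, differences below the SD over libraries (11.5 and 2.38 in the cycling cells). These differences were not tested. Nkd2, Lgr5 and Wif1 had 0 UMIs in the cycling basal cells, which allows up to 0.554 UPM.

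Between follicle and basal cells Lgr5, Wif1, Dkkl1 and Nkd2 rose and Wnt10a fell. These 4 higher members and 1 lower stand beside 17.3% of all genes called, 11.8% higher and 5.49% lower. Of all calls 68.2% were higher in follicle cells, and 76.0% with plain total UMIs. Lgr5 and Wif1 passed the low-count filter only through the follicle group, so that they had to differ once they passed, and their calls add no support to that count. The medians were -0.01 for the members and 0.03 for all genes.

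Lgr5 encodes the R-spondin receptor that marks stem cells of the follicle bulge and of the gut. It stood at 50.4, 129 and 75.4 UPM in follicle cells of replicates 1, 2 and 3. Basal cells were at 0.552, 0.583 and 0.240. The change was 7.41 ± 0.41 (SE, edgeR adjusted p = 5.89e-10), in 3 of 3 libraries, from 90 UMIs against 9. It was 4.22 with overlapping gates and 10.88 with stricter keratin and Lor gates, and called in both. Spinous cells held 1 Lgr5 UMI, and granular and Krt79+Defb6 cells 0, which allows up to 0.362 and 1.495 UPM. The ratio of basal to spinous levels was 14.7, with an exact 95% counting interval of 2.04 to 646 that is too wide to give its size. That comparison passed the test (edgeR adjusted p = 0.0159), and it did not do so without replicate 1 (0.0719), without replicate 2 (0.182) or with stricter cell filters (0.788), and it changed sign with stricter gates.

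Wif1 encodes a secreted protein that binds Wnt ligands and keeps them from their receptors. It stood at 19.6, 26.9 and 94.2 UPM in follicle cells, with replicate 3 far above the others, and at 0.184, 0 and 0.600 in basal cells. A single follicle cell of replicate 3 held 12 of the 30 Wif1 UMIs there. The change was 7.22 ± 0.55 (SE, edgeR adjusted p = 1.44e-07), in 3 of 3 libraries. DESeq2 gave an adjusted p of 0.261 for the same counts, and the change was 4.66 with overlapping gates and 8.94 with stricter gates. Spinous, granular and Krt79+Defb6 cells held 0 UMIs, and in spinous cells this allows up to 0.0888 UPM. With 0 set at 3 counts and the 6 basal UMIs taken as exact, spinous levels were 3.28-fold below basal ones (edgeR adjusted p = 0.0234). The exact counting interval of that fold starts lower, at 1.93. The call was lost without replicate 3 (0.411), without replicate 1 (0.0521), without the replicate block (0.0911) and with DESeq2 (0.520). It was also lost with stricter gates (0.310) and with stricter cell filters (0.103).

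The other members changed less between follicle and basal cells. Lgr6 stood at 42.0, 34.9 and 59.7 UPM in follicle cells, overlapping the basal values, and the difference of -0.21 ± 0.24 (SE, edgeR adjusted p = 0.620) did not pass the test. Wnt10a stood at 47.6, 61.8 and 135, lower than in basal cells in 3 of 3 libraries by a change of -1.03 ± 0.20 (SE, edgeR adjusted p = 8.58e-04). Wnt4 was at 47.6, 61.8 and 116, with a change of -0.62 ± 0.22 (SE, edgeR adjusted p = 0.0596). Fzd6 was at 16.8, 48.4 and 50.3 (0.19 ± 0.26, SE, edgeR adjusted p = 0.688) and Fzd10 at 16.8, 26.9 and 28.3 (-0.73 ± 0.30, SE, edgeR adjusted p = 0.103), and neither passed the test. Fzd10 changed its call or its sign in 4 of 16 alternatives. Its lowest adjusted p came without the follicle cells of a spinous or granular gate (-1.39, adjusted p = 0.0114). Wnt4 passed the test in 3 of 16 alternatives, with its lowest adjusted p under no low-count filter (-0.64, adjusted p = 0.0122).

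Most Wnt3 UMIs in the follicle cells of replicate 1 came from 1 cell. It stood at 28.0, 5.38 and 12.6 UPM, with a change of -1.01 ± 0.36 against basal cells (SE, edgeR adjusted p = 0.0601). A single follicle cell of replicate 1 carried 71 UMIs of the fibroblast gene Dcn, all that the follicle cells of that library held, and 6 of their 10 Wnt3 UMIs. Without cells that carried 10 or more UMIs of immune, melanocyte, fibroblast or endothelial markers, the change was -1.67 and passed the test (adjusted p = 0.00202), as it did without replicate 1 (-1.88, adjusted p = 0.00924). It also passed with overlapping gates (-1.45, adjusted p = 0.00553), gates as shares (-1.43, adjusted p = 0.0335), stricter keratin and Lor gates (-1.08, adjusted p = 0.0367) and no low-count filter (-1.03, adjusted p = 0.0372). The 5 fibroblast markers summed to 218, 10.8 and 12.6 UPM in follicle cells of the 3 libraries, with Col3a1 and Lum at 0 in all of them.

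Dkkl1 and Nkd2 rose in follicle cells, and most of their UMIs lay in a few cells that also met the spinous or granular rule. Dkkl1 stood at 190.3, 164 and 28.3 UPM, with a change of 6.83 ± 0.50 (SE, edgeR adjusted p = 1.60e-09). Nkd2 stood at 11.2, 5.38 and 12.6, with a change of 3.63 ± 0.76 (SE, edgeR adjusted p = 0.00145). Of the 138 Dkkl1 UMIs in follicle cells 132 were in the 11 cells that also met the spinous or granular rule. The other 135 follicle cells stood at 7.84, 0 and 13.1 for Dkkl1. Without those 11 cells the changes were 2.52 for Dkkl1 (adjusted p = 0.0667) and 2.48 for Nkd2 (adjusted p = 0.153), and neither passed the test. The Nkd2 call was also lost with the follicle and Krt79+Defb6 gates set as shares of UMIs (2.44, adjusted p = 0.166).

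**Figure D3:**
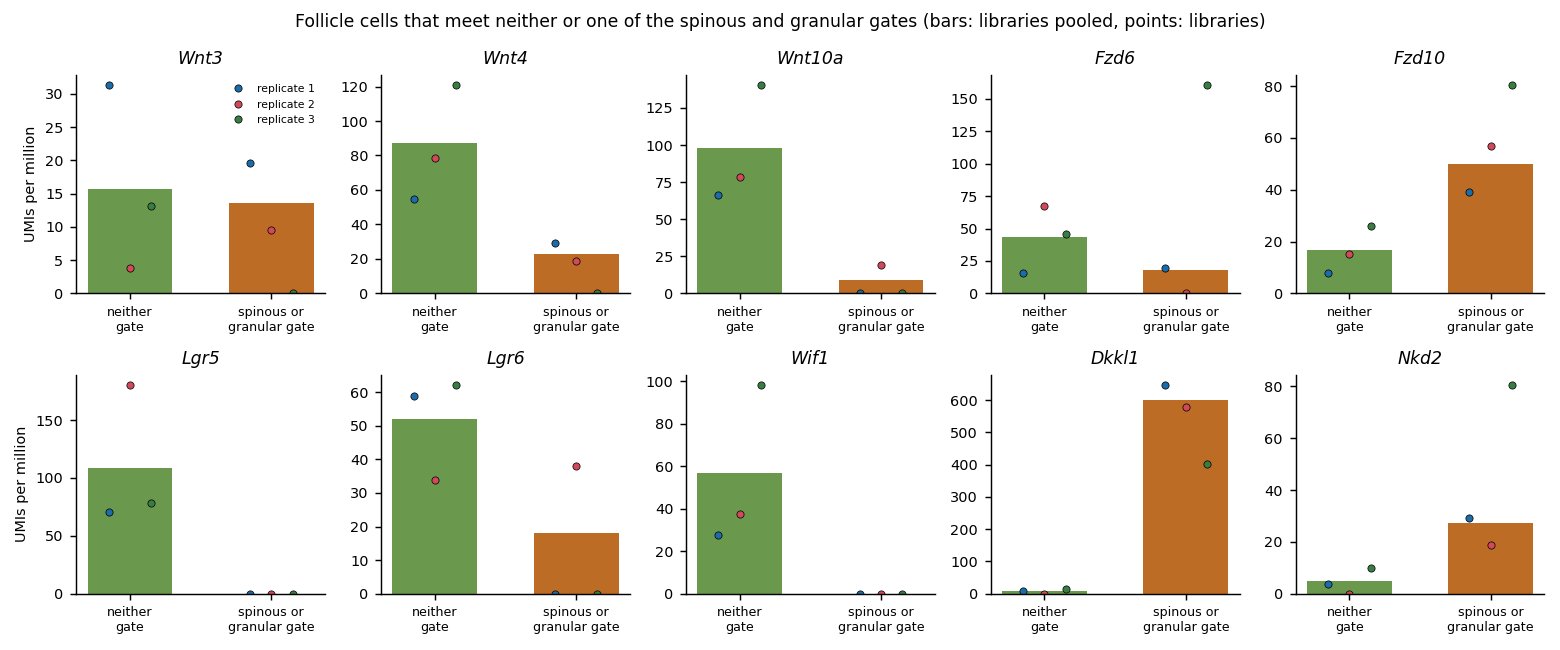
Levels in UPM (vertical axes, linear) in the 135 follicle cells that met neither the spinous nor the granular rule and the 11 that met one of them, with bars for the libraries pooled and points for each library, replicate 3 having 1 cell among the 11. The 90 Lgr5 and 47 Wif1 UMIs lay in the 135 cells and 132 of 138 Dkkl1 UMIs in the 11.

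The split ran the other way for Lgr5 and Wif1, whose 90 and 47 UMIs all lay in the 135 cells outside the spinous and granular rules. There Lgr5 stood at 70.6, 180.1 and 78.4 UPM in replicates 1, 2 and 3 and Wif1 at 27.4, 37.5 and 98.1. Of the 146 follicle cells 38 held Lgr5, 33 held Lgr6 and 20 held Wif1. Lgr5 and Wif1 were found together in 11 cells, Lgr5 and Lgr6 in 6, and Lgr6 and Wif1 in 7. Lgr5 and Dkkl1 were found together in none, and at these depths a gene can be missed in a cell that expresses it.

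The promoter stretches of Lgr6, the receptor lost on leaving the basal layer, and of Wif1, found in follicle cells, are shown for contrast with those above. They lie at chr1:135105227-135105526 on the minus strand and chr10:121033754-121034053 on the plus strand of GRCm38.p6, from RefSeq, with the letters of CACCC and CTTTG matches in capitals.
Lgr6: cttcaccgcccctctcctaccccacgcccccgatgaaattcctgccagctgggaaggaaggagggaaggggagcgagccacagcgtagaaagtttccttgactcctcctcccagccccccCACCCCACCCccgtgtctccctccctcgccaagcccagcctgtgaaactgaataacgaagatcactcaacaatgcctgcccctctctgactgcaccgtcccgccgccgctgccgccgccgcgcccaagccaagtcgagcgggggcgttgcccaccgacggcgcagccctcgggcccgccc
Wif1: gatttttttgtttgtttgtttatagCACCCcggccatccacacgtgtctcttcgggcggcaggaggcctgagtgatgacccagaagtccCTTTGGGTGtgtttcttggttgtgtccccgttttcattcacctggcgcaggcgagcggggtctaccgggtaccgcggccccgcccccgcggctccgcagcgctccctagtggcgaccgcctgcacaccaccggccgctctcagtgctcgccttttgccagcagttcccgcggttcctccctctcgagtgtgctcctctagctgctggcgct
Lgr6 held 2 CACCC boxes side by side, 130 and 125 bases before the start, and none of the other motifs. Wif1 held a CTTTG match 161 bases before the start that overlaps 1 of its 2 CACCC boxes, and no TGANTCA. Of the 3 matched stretches not shown, that of Wnt3 held 1 CACCC box and those of Wnt4 and Fzd10 held 0.

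In Krt79+Defb6 cells Dkkl1 and Nkd2 were far above their basal levels and Wnt10a and Lgr6 far below them. Against basal cells 3 of the 10 genes rose and 3 fell, beside 55.1% of all genes called, 28.8% higher and 26.4% lower. Of all calls 52.2% were higher in Krt79+Defb6 cells, and 34.0% with plain total UMIs. The medians were -0.51 for the members and -0.06 for all genes.

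Wnt10a was almost absent there, with 3 UMIs in all, at 0, 2.89 and 1.48 UPM in replicates 1, 2 and 3. Basal levels were 103 times as high, with an exact 95% counting interval of 35.1 to 498 (edgeR adjusted p = 7.59e-11, lower in 3 of 3 libraries). Lgr6 had 1 UMI in all, and basal levels were 102 times as high, with an interval of 18.2 to 4029 (edgeR adjusted p = 9.17e-09). Dkkl1 stood at 273, 419 and 401, a change of 8.80 ± 0.42 against basal cells (SE, edgeR adjusted p = 3.19e-13). Nkd2 stood at 29.3, 34.7 and 47.3, a change of 6.08 ± 0.37 (SE, edgeR adjusted p = 1.05e-11). Both were higher in 3 of 3 libraries.

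Wnt4 was at 81.3, 20.2 and 64.3 UPM in Krt79+Defb6 cells, with a change of -0.59 ± 0.20 against basal cells (SE, edgeR adjusted p = 0.0177). That call was lost without the replicate block (0.148), without replicate 2 (0.150), without replicate 3 (0.144) and with stricter cell filters (0.151). Fzd10 was at 19.5, 40.4 and 56.9, and its values overlapped the basal ones. Its change of 0.67 ± 0.20 (SE, edgeR adjusted p = 0.00667) was 0.01 without replicate 3 (adjusted p = 0.987) and 0.27 with plain total UMIs (0.244), and it was also lost with overlapping gates (0.279), with DESeq2 (0.0655) and with the 35 cells of both rules added (0.320). Wnt3, at 32.5, 31.8 and 33.3, differed by 0.48 ± 0.23 (SE, edgeR adjusted p = 0.0838), and Fzd6, at 19.5, 11.6 and 20.0, by -0.43 ± 0.26 (SE, edgeR adjusted p = 0.167), which passed with plain total UMIs (-0.84, adjusted p = 0.00805). The 23 Krt79+Defb6 cells outside the spinous and granular rules held 0 UMIs of Wnt3 and Dkkl1 and 1 each of Fzd10 and Nkd2, while the other 73 held 771 of Dkkl1 and 84 of Nkd2.

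Against follicle cells, Krt79+Defb6 cells had 4 members higher and 4 lower, beside 36.1% of all genes called, 19.3% higher and 16.8% lower. Of all calls 53.5% were higher in Krt79+Defb6 cells, against 25.04% with plain total UMIs and 42.6% with DESeq2. This comparison shares its follicle and Krt79+Defb6 profiles with those above. Lgr5 and Wif1, 2 of the 4 lower members, passed the low-count filter only through follicle cells and had to differ here as well, so their calls add no support to the count. In Krt79+Defb6 cells Lgr5 was 57.4-fold lower (edgeR adjusted p = 1.00e-06) and Wif1 30.0-fold lower (edgeR adjusted p = 1.63e-05, and 0.262 with DESeq2). These folds set 0 UMIs at 3 over the group and take the follicle count as exact. Their exact counting intervals start lower, at 45.8 for Lgr5 and 23.5 for Wif1. Follicle levels were 53.0 times as high for Wnt10a, with an exact counting interval of 17.5 to 262 (edgeR adjusted p = 8.06e-07), and 90.0 times as high for Lgr6, with 15.4 to 3629 (edgeR adjusted p = 2.11e-06).

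Dkkl1 was higher in Krt79+Defb6 than in follicle cells by 1.97 ± 0.33 (SE, edgeR adjusted p = 9.08e-05), Nkd2 by 2.45 ± 0.45 (SE, edgeR adjusted p = 2.30e-04), Wnt3 by 1.49 ± 0.41 (SE, edgeR adjusted p = 0.00682) and Fzd10 by 1.41 ± 0.33 (SE, edgeR adjusted p = 0.00209), each in 3 of 3 libraries. Without the 11 follicle cells that also met the spinous or granular rule the Dkkl1 difference was 6.12 (adjusted p = 2.77e-12), and over all alternatives it ran from 1.35 to 6.12. The Wnt3 call was lost without replicate 2 (0.0740), without replicate 3 (0.139), with plain total UMIs (0.0644) and with the cells of both rules added (0.0537). The Fzd10 call was lost without replicate 3 (0.239) and with stricter cell filters (0.0969). Wnt4 (0.03 ± 0.29, SE, edgeR adjusted p = 0.959) and Fzd6 (-0.62 ± 0.35, SE, edgeR adjusted p = 0.174) did not pass the test, though Fzd6 did with plain total UMIs (-1.12, adjusted p = 0.0190).

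**Figure D4:**
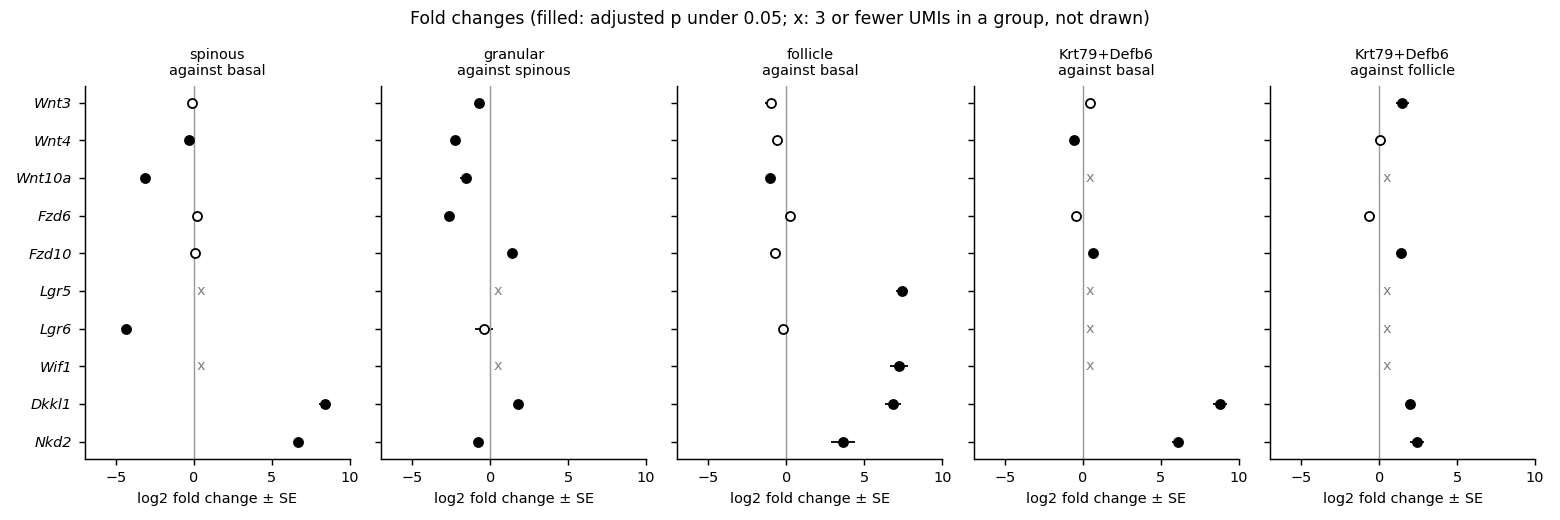
Log2 fold change (horizontal axes) with its SE for the 10 genes (rows) in 5 comparisons (panels), filled where the edgeR adjusted p was under 0.05, with a cross in place of a value where a group had 3 or fewer UMIs. Dkkl1 and Nkd2 lie far right against basal cells, and Fzd10 and Fzd6 lie on opposite sides of 0 between granular and spinous cells.

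In order of mean level, the groups stood apart for some genes only. For Wnt10a the values of neighbouring groups did not overlap from basal through follicle and spinous to granular cells, and granular and Krt79+Defb6 cells overlapped. For Nkd2 no neighbours overlapped in the order spinous, Krt79+Defb6, granular, follicle and basal. For Dkkl1 granular cells came first, Krt79+Defb6 and spinous cells overlapped, and follicle and basal cells followed apart. For Wnt3 every pair of neighbours overlapped, in the order Krt79+Defb6, basal, spinous, follicle and granular.

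The share of cells with a UMI depends on depth, so it is given as counted and after thinning each cell to 3000 UMIs, which leaves out shallower cells. Cells with 10 or more UMIs of immune markers served as cells that should lack most of these genes, 70 in all with a median of 4933 UMIs. Wnt10a was found in 65.0% of basal cells (exact binomial 95% interval 63.0 to 66.9), or 35.6% after thinning, with 209 basal cells left out. In spinous cells it was found in 14.5%, or 4.39% after thinning with 91 left out, and in 2.86% of the immune cells. Lgr6 was found in 31.2% of basal cells, or 13.8% after thinning, in 2.30% of spinous cells, or 0.600%, and in none of the immune cells, which allows up to 4.29%.

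Lgr5 was found in 26.0% of follicle cells (19.1 to 33.9), or 19.4% after thinning with 24 cells left out, and Wif1 in 13.7% (8.57 to 20.4), or 11.8%. By library the Lgr5 cells were 6, 19 and 13. Dkkl1 was found in 50.6% of spinous cells (48.5 to 52.7), or 33.9% after thinning, and in 82.2% of granular cells (78.2 to 85.8), or 66.5% with 24 left out. In basal cells it was found in 0.967%, or 0.309%. Nkd2 was found in 39.5% of spinous cells, or 14.1%, and in 22.6% of granular cells, or 5.85%.

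Dkkl1 was uneven among spinous cells. Of 2221 spinous cells 1097 had no Dkkl1 UMI, while 421 had 10 or more, and the 10% of cells with the most held 50.4% of its UMIs. In granular cells 193 of 411 had 10 or more, and the top 10% held 28.9%. Of the 878 spinous cells with Nkd2, 681 also held Dkkl1, among 1124 that held Dkkl1.

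**Figure D5:**
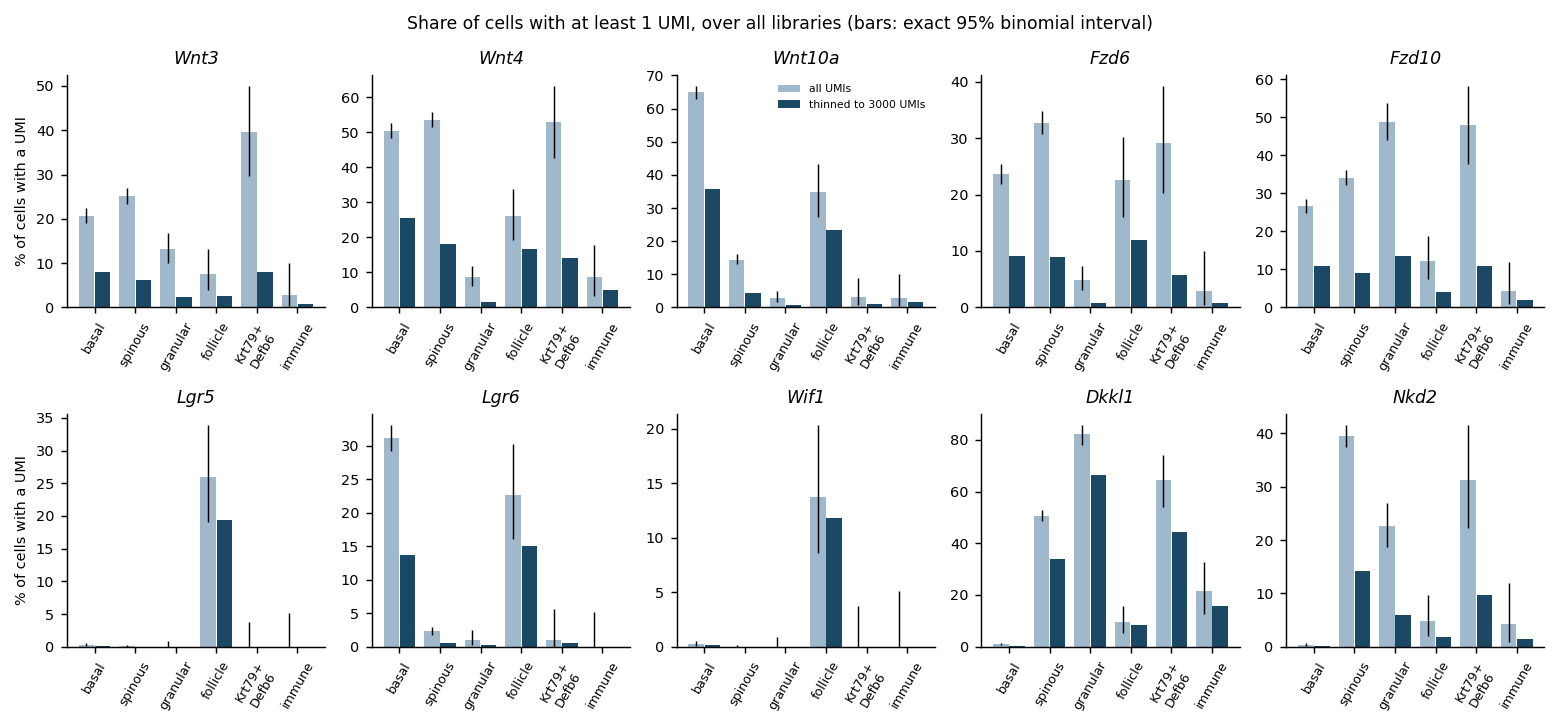
Percentage of cells with at least 1 UMI of each gene (vertical axes, from 0) in 5 groups and in 70 cells with immune markers, counted on all UMIs (light, with exact binomial 95% intervals) and after thinning to 3000 UMIs (dark). Dkkl1 reached 82.2% of granular cells and 21.4% of immune cells, and Lgr5 26.0% of follicle cells.

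A list of 97 other genes of the pathway was read by symbol, and 62 of them were tested. Between spinous and basal cells 19 of the 62 rose and 27 fell, or 74.2% called beside 67.3% of all genes, with a median of -0.18. The 3 with the largest changes were all lower in spinous cells. Wnt6, a ligand, changed from a mean of 13.6 to 0.476 UPM, by -4.46 ± 0.27 (SE, edgeR adjusted p = 2.41e-11), and Wnt16, another ligand, by -4.07 ± 0.23 (SE, edgeR adjusted p = 1.21e-12). Prickle2, of the planar polarity branch, had 3 spinous UMIs, and basal levels were 27.3 times as high, with a counting interval of 8.82 to 137 (edgeR adjusted p = 2.23e-06). With 3 UMIs it could not pass the low-count filter through spinous cells, so its call adds no support to the count of lower genes. Of the 6 other Wnt ligands tested 5 fell and 1 rose. Among those that fell, Wnt3a and Wnt10b passed the low-count filter only through basal cells. They had to differ from spinous cells, so their calls add no support to that count. The one that rose was Wnt7b, named after its value was seen, at 43.8, 48.3 and 61.3 UPM in spinous cells of replicates 1, 2 and 3 against 32.9, 25.9 and 37.2 in basal cells (1.03 ± 0.12, SE, edgeR adjusted p = 2.32e-07).

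Between granular and spinous cells 13 of the 62 rose and 30 fell, or 69.4% called beside 69.3% of all genes, with a median of -0.78. Dact2, of a family whose proteins bind Dishevelled, had 69 UMIs in granular against 3 in spinous cells, a ratio of levels of 93.9 with a counting interval of 30.8 to 467 (edgeR adjusted p = 1.62e-10). With 3 UMIs it could not pass the low-count filter through spinous cells, so its call adds no support to that count. Tpbg, a membrane protein that restrains Wnt co-receptors, changed by -3.40 ± 0.23 (SE, edgeR adjusted p = 2.39e-11). Fzd2 had 0 granular UMIs and was 3.59-fold lower with 0 set at 3 counts (edgeR adjusted p = 0.00410). Of the 5 other Frizzled genes tested 3 fell and none rose, beside the rise of Fzd10.

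In follicle against basal cells 19 of the 62 rose and 5 fell, or 38.7% called beside 17.3% of all genes, with a median of 0.45. Tcf7l1, a TCF factor known from follicle stem cells and 1 of the markers fixed for the bulge, rose by 4.89 ± 0.83 (SE, edgeR adjusted p = 2.32e-04). It had 13 UMIs in follicle cells and 7 in basal cells, and like Lgr5 it passed the low-count filter through follicle cells, so that it had to differ from basal cells. The receptor gene Fzd7 rose by 4.33 ± 0.37 (SE, edgeR adjusted p = 1.89e-08), and Dact2 by 3.85 ± 0.94 from 6 UMIs (SE, edgeR adjusted p = 0.00679). Of the 5 other Frizzled genes tested 4 rose and none fell, while neither Fzd6 nor Fzd10 passed the test.

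For Krt79+Defb6 cells the 62 genes split into 13 higher and 26 lower against basal cells, and 5 higher and 26 lower against follicle cells, with medians of -0.51 and -0.81. These are 62.9% and 50% of the list, beside 55.1% and 36.1% of all genes. The largest changes were of genes with 0 UMIs in Krt79+Defb6 cells. Such genes could not pass the low-count filter through that group, so their calls add no support to these counts. Wnt3a passed it only through basal cells, so that it had to differ. The folds set 0 at 3 counts and take the other count as exact. Against basal cells Rspo3, an R-spondin, was 10.6-fold lower on that basis (edgeR adjusted p = 2.91e-05), Wnt3a 7.26-fold (2.06e-04) and Wnt5b 3.40-fold (0.00668). Against follicle cells Tcf7l1, which passed that filter through follicle cells, was 8.30-fold lower (edgeR adjusted p = 0.0121), Wnt5b 7.02-fold (0.00455) and Dact2 3.83-fold (0.0259).

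The genes most like each member were sought by Pearson's r of TMM-scaled log2 values over the 15 profiles of library and group, which share libraries. For Dkkl1 they were Slurp2 (0.996), Agpat4 (0.993) and Dgat2 (0.993), and for Nkd2 Rhov (0.978), Sppl3 (0.975) and Otop3 (0.975). For Lgr5 they were Fam171b (0.997), Col5a2 (0.995) and Cd34 (0.994), and for Wif1 Scrg1 (0.995), 6330403K07Rik (0.994) and Slc14a1 (0.991). Lgr6 was most like Ptprz1 (0.993), Knl1 (0.991) and Gm15867 (0.977), and Wnt10a most like Xpc (0.984), S100a13 (0.962) and Zkscan17 (0.960). Wnt4 was most like Pgam1 (0.947), Gpc1 (0.945) and Cmc1 (0.941), and Wnt3 most like Ston2 (0.916), Slc25a3 (0.909) and H60c (0.903). Fzd6 was most like Tango2 (0.969), Klf13 (0.967) and Nars (0.966), and Fzd10 most like Ube2o (0.953) and Junb (0.945).

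In the annotation of build mm10 that was used (GENCODE M21) all 10 are protein-coding genes. Dkkl1 lies at chr7:45207519-45212147 and Nkd2 at chr13:73818534-73847631, both on the minus strand. Lgr6 lies at chr1:134983301-135105276 on the minus strand and Wnt10a at chr1:74791516-74804179 on the plus strand. Lgr5 (chr10:115450311-115587780, minus) and Wif1 (chr10:121033960-121100650, plus) share chromosome 10. Fzd6, Lgr5 and Nkd2 each overlap a gene on the other strand (Gm26704, A930009A15Rik and Gm8062), and the sources used here do not give whether counting used strand, so part of their counts may belong to those genes.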

How the data were processed

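Epidermal cells of 3 libraries were profiled with a 10x Genomics 5′ kit, changed by adding short cDNA fragments back, per the labels' protocols. The deposited values are UMI counts per gene and barcode made by the authors with Cell Ranger 3.1.0 on mm10, per the submitters' processing notes. The sources used here do not give the settings. The 10 genes, the other gene lists and the tests were chosen with earlier results of these data known.

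Barcodes were kept if they had at least 500 genes and no more than 10% of UMIs from mitochondrial genes, and 738 were left out. Scrublet (scanpy 1.11.5, Python 3.11.15) marked 33 of the kept cells as doublets. They stayed in, and leaving them out was an alternative. Counts were summed per library and group (10 or more cells), which gave 15 profiles. They were tested with edgeR 4.0.16 (R 4.3.3), by its quasi-likelihood test with TMM scaling, filterByExpr and a term for the library, since profiles of 1 number come from 1 library. Same-library deviations correlated at r = 0.241 to 0.279 between spinous and basal cells and at 0.000454 to 0.157 in the other 4 comparisons. The 10 genes that define groups were not tested.

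Genes named were all 10 members, the 3 called genes of the other pathway list with the largest fold in each comparison, and the 3 genes most like each member, of which 1 is not reported here. The likeness used TMM-scaled log2 values with a prior count of 2. Ratios of levels carry exact intervals at 95% for pooled counts. For a fold, a count of 0 was set at 3 counts over the group and the other count was taken as exact. Intervals cover counting error only. Alternatives were plain total UMIs, DESeq2 1.42.0, no low-count filter, no library term, each replicate left out, and other gates and cell filters. The last were cells with 1000 genes and 5% mitochondrial UMIs. An alternative without the follicle cells of a spinous or granular gate, and another with the cells of both rules placed in Krt79+Defb6, were chosen after seeing the data.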

Additional observations from a re-analysis of the deposited data

Results flagged for a closer look

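Cells outside the 5 groups held members above the level that a count of 0 allows, in libraries pooled. In the 35 cells that met both the follicle and the Krt79+Defb6 rule, where that level is 7.61 UPM (UMIs per 1000000 UMIs), Wnt4 stood at 55.78, Dkkl1 at 48.17, Fzd6 at 35.5, Wnt10a at 20.28, Lgr6 at 17.75 and Nkd2 at 10.14. Their 4 Nkd2 and 7 Lgr6 UMIs are few. In the 155 cells that met no rule, 63 of which carried immune markers, that level is 3.18 UPM. There Wnt10a stood at 37.06, Dkkl1 at 31.76, Wnt4 at 23.29, Fzd6 at 16.94, Lgr6 and Wif1 each at 15.88, Fzd10 at 12.71, Lgr5 at 9.529 and Nkd2 at 8.47.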

How the results depend on the processing

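Of 48 fold changes of the members, 22 kept their direction and their side of the threshold in all 16 alternatives, and 26 did not in at least 1. Directions reversed as follows, on the log2 scale. Between spinous and basal cells, Wnt3 was 0.0067 with stricter cell filters and 0.045 without cycling cells. Fzd6 was -0.17 with plain total UMIs and -0.017 with DESeq2. Fzd10 was -0.26 and -0.11 in those and -0.043 without the follicle cells of a spinous or granular gate, and Lgr5 was 1.05 with stricter gates. Between granular and spinous cells Lgr6 ran from -2.15 without replicate 3 to 0.15 without replicate 2. Between follicle and basal cells Fzd6 ran from -0.042 without replicate 2 to 0.47 without replicate 1, and with stricter cell filters Fzd6 was -0.071 and Fzd10 0.027. Between Krt79+Defb6 and basal cells Lgr5 was 0.060 with stricter gates and Wif1 1.10 with DESeq2, both from 0 UMIs. Between Krt79+Defb6 and follicle cells Wnt4 was -0.47 with plain total UMIs, -0.34 without replicate 1 (0.23 without replicate 3), -0.17 with gates as shares, -0.20 without the follicle cells of a layer gate, -0.083 with the cells of both rules added and -0.16 with DESeq2. Leaving out 1 replicate gave 6178 to 6770 called genes between spinous and basal cells, 6232 to 7026 between granular and spinous, 933 to 1342 between follicle and basal, 3305 to 5589 between Krt79+Defb6 and basal, and 1615 to 3341 between Krt79+Defb6 and follicle cells. The lowest values were without replicate 2 for follicle cells against basal cells and without replicate 3 in both Krt79+Defb6 comparisons, where that replicate held 65 of 96 cells. Stricter cell filters gave 982 for follicle against basal and 2270 for Krt79+Defb6 against follicle cells. Without the replicate block, in which library numbers pair the profiles, the counts in that order were 6676, 7184, 1664, 5759 and 3825. DESeq2 moved the median of all genes by -0.18 between spinous and basal cells, and by -0.13 and -0.17 for Krt79+Defb6 cells against basal and against follicle cells. Apart from the fewer samples of the left-out replicates, the cause of these changes was not tested. Follicle and Krt79+Defb6 values rest on 37, 59 and 50 and on 12, 19 and 65 cells.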

Other observations

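Dkkl1 UMIs were also found in cells that carried immune markers. The 70 cells with 10 or more immune-marker UMIs were split, after their values were seen, into 20 with T cell markers and 50 with antigen presentation markers. The T-marker cells, with a median of 2993.5 UMIs, held 12 Dkkl1 UMIs in 6 cells, which were 1 of 3 cells in replicate 1, 0 of 10 in replicate 2 and 5 of 7 in replicate 3. The same cells held 4 UMIs of Krtdap, an abundant gene of suprabasal keratinocytes, a ratio of 300.0 Dkkl1 UMIs per 100 Krtdap UMIs. In spinous cells the ratio was 2.54, and in the antigen presentation cells, with 22 Dkkl1 and 1571 Krtdap UMIs, it was 1.40. The T-marker cells also held 18 UMIs of Krt10, another suprabasal gene, in 10 of the 20 cells. Per 100 Krt10 UMIs the Dkkl1 ratio was 66.7 there, 1.44 in the antigen presentation cells and 1.83 in spinous cells. Of the other members the T-marker cells held 1 UMI each of Wnt4 and Fzd10. The counts are small, no test was made, and the source of these Dkkl1 UMIs was not tested.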
